A study of Homo sapiens with 12 samples.

Results

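The 10 genes described here are early response genes: the early growth response factors EGR1, EGR2 and EGR3, the nuclear receptors NR4A1, NR4A2 and NR4A3, the neuronal genes ARC and NPAS4, and the immediate early response genes IER2 and IER5. They were taken as the rows of the count table with these symbols, and all 10 were found among its 27505 features (19974 Ensembl genes and 7531 loci with no annotation). The table comes from RNA sequencing of 2 established human retinoblastoma lines, WERI-Rb-1 (WERI here) and Y79, whose genotype is labelled WT. WERI and Y79 cells were kept for 12 h with 50 nM THZ1, which blocks CDK7 by a covalent bond and also acts on CDK12 and CDK13, or with 0.1% DMSO. DMSO is named for the control groups only, so whether the THZ1 wells held the same solvent is not known. The 4 groups are WERI with THZ1, WERI with DMSO, Y79 with THZ1 and Y79 with DMSO, each with 3 libraries. The series calls the libraries of a group biological samples and does not say more of how they were separated, so p-values measure only the spread between these samples.

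Early response genes are switched on within minutes of a stimulus, without new protein synthesis, and their mRNAs are short-lived. In neurons, synaptic activity and calcium entry act through the kinase ERK and the factors SRF, ELK and CREB on the start sites of these genes. EGR proteins are zinc finger transcription factors, NR4A proteins are nuclear receptors that act without a known ligand, NPAS4 is a neuronal transcription factor that shapes inhibitory synapses, and ARC is a synaptic protein that governs the uptake of glutamate receptors. IER2 and IER5 are small nuclear proteins of the early response, and IER5 is a known partner of heat shock factor HSF1. CDK7 is the kinase of TFIIH that phosphorylates RNA polymerase II at the start of transcription.

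Promoter sequences, 250 bases before to 50 bases from the start on, were found in RefSeq (GRCh38.p14) for 7 of the 10 genes. Of these genes 6 are printed here, each at a single listed start, and IER5 is not. Capitals mark 2 motifs searched on both strands: the CArG box, which SRF binds, and TGACGT, the core of a CREB site. TGACGT reads ACGTCA where it lies on the other strand. Each sequence runs 5′ to 3′ on the strand of its gene.
EGR1 promoter, chr5:138465229-138465528, plus strand: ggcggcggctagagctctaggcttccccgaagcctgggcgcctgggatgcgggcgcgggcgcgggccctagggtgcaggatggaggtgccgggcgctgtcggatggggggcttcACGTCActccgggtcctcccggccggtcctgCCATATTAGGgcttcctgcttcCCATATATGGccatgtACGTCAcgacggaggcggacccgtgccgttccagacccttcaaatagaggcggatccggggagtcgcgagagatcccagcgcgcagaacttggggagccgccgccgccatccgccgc
EGR2 promoter at the third of 3 listed starts, chr10:62816317-62816616, minus strand: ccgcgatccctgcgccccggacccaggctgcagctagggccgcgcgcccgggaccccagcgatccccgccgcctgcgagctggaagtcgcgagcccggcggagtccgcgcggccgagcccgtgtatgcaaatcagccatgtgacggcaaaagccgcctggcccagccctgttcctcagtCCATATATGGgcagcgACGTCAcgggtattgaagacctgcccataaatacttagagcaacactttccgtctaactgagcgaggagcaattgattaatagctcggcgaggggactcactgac
NPAS4 promoter at the first of 2 listed starts, chr11:66420754-66421053, plus strand: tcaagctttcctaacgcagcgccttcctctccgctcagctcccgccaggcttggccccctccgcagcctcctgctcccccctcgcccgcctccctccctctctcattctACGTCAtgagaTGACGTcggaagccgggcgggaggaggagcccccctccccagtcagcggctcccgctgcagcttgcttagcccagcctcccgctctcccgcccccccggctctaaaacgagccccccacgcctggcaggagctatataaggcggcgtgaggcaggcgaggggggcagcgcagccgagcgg
NR4A3 promoter, chr9:99821635-99821934, plus strand: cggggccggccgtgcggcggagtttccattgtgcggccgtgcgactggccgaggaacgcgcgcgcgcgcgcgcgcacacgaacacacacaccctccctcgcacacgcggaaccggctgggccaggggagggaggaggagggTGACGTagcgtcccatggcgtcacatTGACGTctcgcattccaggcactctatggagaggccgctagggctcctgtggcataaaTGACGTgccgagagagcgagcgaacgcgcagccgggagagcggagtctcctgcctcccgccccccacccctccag
NR4A1 promoter at the second of 2 listed starts, chr12:52037465-52037764, plus strand: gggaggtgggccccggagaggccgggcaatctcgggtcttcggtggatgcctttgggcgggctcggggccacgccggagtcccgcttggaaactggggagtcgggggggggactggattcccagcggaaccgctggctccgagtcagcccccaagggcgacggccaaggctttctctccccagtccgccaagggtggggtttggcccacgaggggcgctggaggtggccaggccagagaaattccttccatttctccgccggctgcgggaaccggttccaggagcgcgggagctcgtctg
IER2 promoter, chr19:13150161-13150460, plus strand: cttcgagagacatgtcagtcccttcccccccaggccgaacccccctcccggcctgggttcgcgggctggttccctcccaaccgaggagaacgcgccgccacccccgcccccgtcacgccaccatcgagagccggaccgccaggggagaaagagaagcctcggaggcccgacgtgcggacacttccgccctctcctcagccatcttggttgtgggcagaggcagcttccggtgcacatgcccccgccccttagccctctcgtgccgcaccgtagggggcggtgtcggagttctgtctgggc

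Positions count from the start site, with -1 for the base before it, and give the first base of a match. The EGR1 window held CArG boxes at -105 and -83 and the other motif at -136 and -67. The EGR2 window at the third listed start held 1 CArG box at -71 and 1 ACGTCA at -55. The windows at the first and second listed starts of EGR2 held neither motif. TGACGT in either direction stood at -141 and -130 in NPAS4 and at -109, -83 and -25 in NR4A3. No match overlapped another. Neither motif was in the windows of NR4A1, IER2 and IER5, at any listed start. Among all 35116 promoters in the table, 1.29% held a CArG box and 7.98% held TGACGT. The searches for TATAAA (11.5% of promoters), AAAGGTCA, the binding site of a single NR4A receptor (1.22%), and GCGNGGGCG, the EGR site (9.43%), found no match in these 7 genes except GCGNGGGCG at -198 in EGR1 and at 9 in the second start of EGR2. A match describes letters and shows no binding.

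The genes lie on 9 chromosomes of GRCh38, with positions from GENCODE v29. EGR1 (ENSG00000120738) lies at chr5:138465490-138469315 on the plus strand, EGR2 (ENSG00000122877) at chr10:62811996-62919900 on the minus strand, and EGR3 (ENSG00000179388) at chr8:22687659-22693302 on the minus strand. NR4A1 (ENSG00000123358) lies at chr12:52022832-52059507 on the plus strand, NR4A2 (ENSG00000153234) at chr2:156324432-156342348 on the minus strand, and NR4A3 (ENSG00000119508) at chr9:99821855-99866891 on the plus strand. ARC (ENSG00000198576) lies at chr8:142611044-142614472 on the minus strand, NPAS4 (ENSG00000174576) at chr11:66421004-66426707, IER2 (ENSG00000160888) at chr19:13150415-13154908 and IER5 (ENSG00000162783) at chr1:181088712-181092899, these last on the plus strand. Most are compact. EGR1, EGR3, ARC, NPAS4, IER2 and IER5 span 3.83, 5.64, 3.43, 5.70, 4.49 and 4.19 kb, whereas NR4A2, NR4A1, NR4A3 and EGR2 span 17.9, 36.7, 45.0 and 107.9 kb. Exons of IER2, NR4A1 and EGR3 share 946, 754 and 164 bp with noncoding genes on the opposite strand, and the library kit keeps no strand, so reads from these stretches cannot be told apart.

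Library totals ranged from 29677575 to 37433574 counts. Photoreceptor and retinoblastoma markers were detected in every group, 9 of 9, with summed levels of 1649 to 1735 counts-per-million (CPM) in WERI with THZ1, 2513 to 2604 in WERI with DMSO, 1465 to 1802 in Y79 with THZ1 and 1847 to 1874 in Y79 with DMSO. Markers of stroma, vessels and blood summed to 56.5 to 57.4 CPM with THZ1 and 25.5 to 29.3 with DMSO in WERI, and to 6.97 to 8.02 with THZ1 and 2.43 to 3.94 with DMSO in Y79, where COL3A1 and LUM were at 0 in both groups. Markers of ganglion and amacrine neurons, which can express these early genes, summed to 66.3 to 73.2 CPM with THZ1 and 55.4 to 61.8 with DMSO in WERI, and to 54.8 to 59.9 with THZ1 and 41.0 to 44.1 with DMSO in Y79. SLC17A6 was at 0 in every group. Markers of Muller glia and pigment epithelium summed to 82.7 to 118 CPM with THZ1 and 76.4 to 84.8 with DMSO in WERI, and to 441 to 498 with THZ1 and 496 to 518 with DMSO in Y79, and TYR was at 0 in all groups. The part of these cell types in the results was not tested. The mRNA of CDK7, the target of the drug, fell by 1.89 ± 0.13 on the log2 scale in WERI and by 1.83 ± 0.12 in Y79 (SE). One library stood apart: in Y79 with THZ1, replicate 2 gave 14.7% of its counts to ribosomal protein mRNAs, against 10.9% and 10.6% in replicates 1 and 3, and the results in Y79 that change with it are also given without it.

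THZ1 also changed how the libraries were divided, which bears on every fold change. The 13 mitochondrially encoded mRNAs are not products of RNA polymerase II. They took 9.79% to 11.2% of counts in WERI with THZ1 and 3.74% to 3.94% in WERI with DMSO, and 8.44% to 9.73% in Y79 with THZ1 and 3.94% to 4.46% in Y79 with DMSO. So 2 scalings are given side by side. TMM scaling sets the typical gene near no change, and the median log2 change of 14865 tested genes was -0.11 in WERI and -0.09 in Y79. Scaling to the mitochondrial mRNAs instead gave medians of -2.01 in WERI and -1.80 in Y79. That scale takes the amount of mitochondrial mRNA per cell as unchanged by THZ1, which was not tested. Changes on it, higher or lower, are therefore relative to these mRNAs and are not absolute amounts. Changes below are on the TMM scale unless the mitochondrial scale is named, and adjusted p values come from edgeR's quasi-likelihood test, adjusted over all tested features. In bulk RNA, fewer cells of a type and less RNA per cell cannot be told apart. Together the 10 genes took 0.0779% to 0.0826% of counts in WERI with THZ1 and 0.0183% to 0.0197% in WERI with DMSO, and 0.0654% to 0.0711% in Y79 with THZ1 and 0.0222% to 0.0232% in Y79 with DMSO.

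In WERI, 6 of the 10 genes (EGR1, EGR2, ARC, NPAS4, IER2 and IER5) were higher with THZ1 and NR4A1 was lower, at an adjusted p under 0.05. Of all tested genes, 27.7% were called higher and 37.2% lower in this comparison. In Y79, the same 6 genes and EGR3 were higher and NR4A1 was lower, where 29.9% of all tested genes were called higher and 38.5% lower. EGR2 and EGR3 passed the filter on low counts only through libraries with THZ1. Their calls as higher, here and below, are therefore not independent of that filter. With only the groups compared in the fit, neither was tested in WERI, and 6 genes were called higher in Y79. With scaling to mitochondrial mRNAs, 5 genes were higher in WERI (EGR1, EGR2, ARC, NPAS4 and IER2), where 0.747% of tested genes were called higher, and IER5, NR4A1 and NR4A2 were lower, where 89.7% were. On that scale 5 genes were higher in Y79 (EGR1, EGR2, EGR3, ARC and IER2), where 1.9% of tested genes were called higher, and IER5 and all 3 NR4A genes were lower, where 82% were. EGR2, EGR3 and NR4A3 lost these calls in Y79 without replicate 2 of Y79 with THZ1 (adjusted p = 0.0946, 0.0934 and 0.0595), which left 3 genes higher and 3 lower. The median log2 change of the 10 genes was 2.12 in WERI (1.83 with EGR2, which had no counts in DMSO, at its lower bound) and 1.93 in Y79. Against mitochondrial mRNAs the median was 0.25 in WERI (-0.06 with EGR2 at its bound of 3 counts per library) and 0.22 in Y79.

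**Figure D1:**
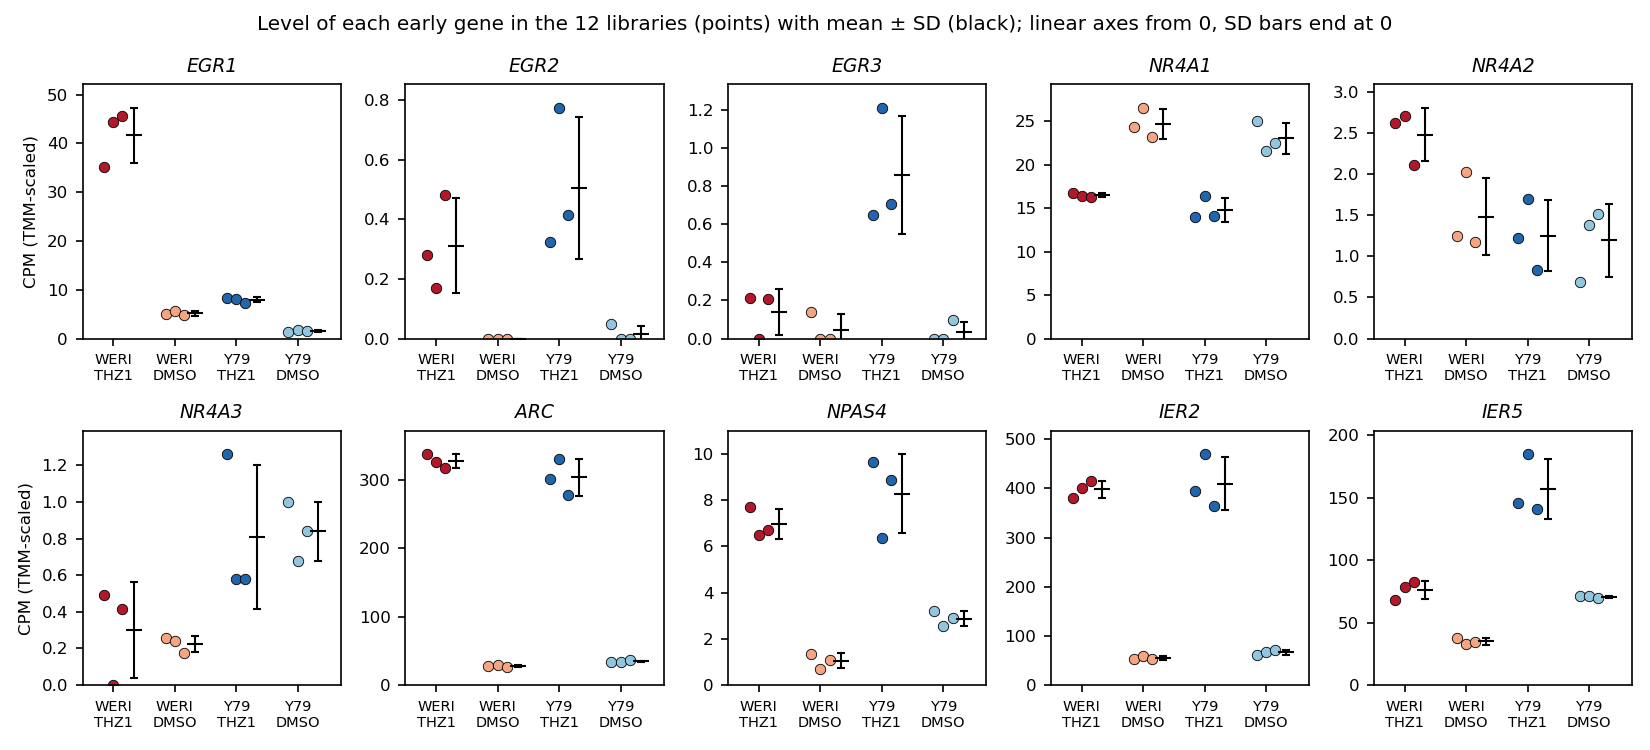
Level of each early gene in CPM with TMM scaling (linear axes) in WERI with THZ1, WERI with DMSO, Y79 with THZ1 and Y79 with DMSO; points are the 3 libraries of a group, and the black bar is mean ± SD. EGR1, ARC, NPAS4, IER2 and IER5 with THZ1 lie above their DMSO libraries in both lines on this scale, and NR4A1 lies below; on the mitochondrial scale IER5 lies below in both lines and NPAS4 overlaps in Y79.

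EGR1, the best known factor of its family, had 35.1, 44.3 and 45.5 CPM in WERI with THZ1, against 5.09, 5.72 and 4.76 CPM in WERI with DMSO. Y79 cells had 8.36, 8.08 and 7.35 CPM with THZ1, against 1.35, 1.76 and 1.59 CPM with DMSO. The groups did not overlap in either line. The rise was 3.00 ± 0.14 (SE) on the log2 scale in WERI (adjusted p = 8.93e-10) and 2.34 ± 0.15 in Y79 (adjusted p = 8e-09). It was 2.30 in Y79 without replicate 2 of the treated libraries. The rise against mitochondrial mRNAs was 1.11 ± 0.17 in WERI and 0.63 ± 0.19 in Y79 (0.61 without that replicate).

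EGR2, known for its part in myelination and hindbrain patterning, was close to silent without the drug. It had 8, 5 and 14 counts in WERI with THZ1 and 0 counts in all 3 WERI libraries with DMSO. Y79 cells had 9, 16 and 10 counts with THZ1, against 2, 0 and 0 counts with DMSO. Every treated library lay above every DMSO library of its line, at levels under 1 CPM. A count of 0 leaves room for a floor of 3 counts per library. Against it, with treated counts as observed, EGR2 was at least 4.47-fold higher in WERI (1.17-fold on the mitochondrial scale). The adjusted p values of edgeR's test, 0.00168 and 0.0127, belong to the fitted changes of 6.43 and 5.63 and not to these bounds. They are no independent support, since EGR2 passed the filter only through libraries with THZ1. In Y79 the ratio was 29.8, with a 95% exact counting interval of 7.66 to 256, and 9.14 (2.35 to 78.4) on the mitochondrial scale. The floor and the intervals rest on what a fragment adds to a count, which is not known. From 146 to 201 features per library had a count of 1 and from 553 to 686 a count of 2. If each fragment adds 2 counts, a setting chosen after the data were seen, the floor of 3 fragments is 6 counts and the bounds in WERI are 2.23-fold and 0.584-fold, so that on the mitochondrial scale a rise of EGR2 in WERI is not bounded above 1. The median change of the 10 genes in WERI with EGR2 at this bound is 1.33, and -0.56 on the mitochondrial scale. In Y79 the interval then runs from 4.84 to 1278, and from 1.48 to 391.5 on the mitochondrial scale. Counting intervals cover counting error only. The bounds in WERI take the treated counts as observed and leave out their counting error.

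EGR3, a factor of muscle spindle development that is also induced in neurons, rose in Y79, where it had 18, 25 and 17 counts with THZ1, against 0, 0 and 4 counts with DMSO. The ratio there was 25.6 (95% exact counting interval 9.48 to 96.9), and 7.83 (2.90 to 29.7) on the mitochondrial scale. For the fitted change edgeR's test gave an adjusted p of 0.00686, which is not independent of the filter on low counts. With 2 counts per fragment the intervals run from 6.72 to 227.8 and from 2.06 to 69.8. Without replicate 2 of the treated libraries the adjusted p was 0.0153 for EGR3 and 0.0101 for EGR2, and neither passed on the mitochondrial scale. In WERI, EGR3 had 6, 0 and 6 counts with THZ1 and 6, 0 and 0 with DMSO, and the groups overlapped (adjusted p = 0.357). The difference between the lines in the change of EGR3 was 3.07 ± 1.97 and did not pass (adjusted p = 0.318), so that the call in one line and not in the other does not show that they differ.

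ARC, whose mRNA moves to active synapses, had 338, 326 and 318 CPM in WERI with THZ1, against 28.4, 29.9 and 26.4 CPM with DMSO. Y79 had 303, 332 and 278 CPM with THZ1, against 33.7, 34.1 and 35.9 CPM with DMSO. Every treated library lay above every DMSO library, and treated levels overlapped between the lines. The rise was 3.54 ± 0.08 in WERI (adjusted p = 4.58e-12) and 3.14 ± 0.08 in Y79 (adjusted p = 7.66e-12), and 3.04 in Y79 without replicate 2 of the treated libraries. By size of change ARC stood at rank 97 of 14865 tested genes in WERI and 294 in Y79. Scaled to mitochondrial mRNAs, the rise was 1.64 ± 0.10 in WERI and 1.43 ± 0.10 in Y79 (1.36 without that replicate).

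NPAS4 had 7.69, 6.50 and 6.69 CPM in WERI with THZ1, against 1.36, 0.705 and 1.07 CPM with DMSO. In Y79 it had 9.63, 6.34 and 8.85 CPM with THZ1, against 3.18, 2.56 and 2.89 CPM with DMSO. Treated levels overlapped between the lines, whereas every Y79 library with DMSO lay above those of WERI. The rise was 2.73 ± 0.24 in WERI (adjusted p = 3.22e-07) and 1.52 ± 0.23 in Y79 (adjusted p = 4.27e-05), and 1.65 in Y79 without replicate 2 of the treated libraries, its lowest. Scaled to mitochondrial mRNAs, NPAS4 was higher in WERI by 0.83 ± 0.27, while in Y79 the change was -0.18 ± 0.26 and did not pass (adjusted p = 0.527), nor without that replicate (-0.027).

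IER2 was the most abundant of the 10 genes in all 4 groups, per length of exon. It had 381, 400 and 415 CPM in WERI with THZ1, against 53.2, 59.1 and 53.1 CPM with DMSO. Y79 had 396, 470 and 364 CPM with THZ1, against 60.9, 66.8 and 71.3 CPM with DMSO. The groups stood apart in both lines, and replicate 2 was the highest of the treated Y79 libraries. The rise was 2.85 ± 0.10 in WERI (adjusted p = 1.37e-10) and 2.63 ± 0.10 in Y79 (adjusted p = 1.07e-10), and 2.49 in Y79 without replicate 2. Against mitochondrial mRNAs it was 0.96 ± 0.11 in WERI and 0.92 ± 0.11 in Y79 (0.80 without replicate 2).

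IER5 had 67.8, 78.1 and 82.2 CPM in WERI with THZ1, against 38.0, 33.1 and 34.1 CPM with DMSO. Y79 cells had 146, 185 and 141 CPM with THZ1, against 71.1, 71.3 and 69.6 CPM with DMSO. On the TMM scale IER5 was higher by 1.12 ± 0.10 in WERI and 1.15 ± 0.10 in Y79, but on the mitochondrial scale it was lower, with changes of -0.78 ± 0.13 in WERI and -0.56 ± 0.12 in Y79 (adjusted p = 1.32e-05 and 0.000459). Its direction therefore rests on the scaling, while under both it lay above the median gene. Without replicate 2 of the treated Y79 libraries its change in Y79 was 0.99 on the TMM scale and -0.69 on the mitochondrial scale.

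No NR4A gene was called higher in either line with these scalings and all 12 libraries. NR4A1, also called Nur77, had 16.7, 16.5 and 16.3 CPM in WERI with THZ1, against 24.3, 26.6 and 23.2 CPM with DMSO. In Y79 it had 14.0, 16.4 and 14.1 CPM with THZ1, against 25.1, 21.6 and 22.5 CPM with DMSO. Every treated library lay below every DMSO library of its line. NR4A1 fell by 0.58 ± 0.10 on the log2 scale in WERI (adjusted p = 0.00014) and by 0.64 ± 0.10 in Y79 (adjusted p = 6.2e-05), and by 0.75 in Y79 without replicate 2 of the treated libraries. Against mitochondrial mRNAs it fell by 2.48 ± 0.13 in WERI and by 2.35 ± 0.13 in Y79 (2.43 without that replicate), which is also below the median gene of each line.

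NR4A2, a factor of dopamine neurons, had 2.62, 2.71 and 2.10 CPM in WERI with THZ1, against 1.24, 2.02 and 1.17 CPM with DMSO, and its change of 0.75 ± 0.36 did not pass (adjusted p = 0.0878), though it passed with only WERI libraries in the fit (adjusted p = 0.0238) and without replicate 2 of WERI with DMSO (1.03, adjusted p = 0.0447). In Y79 it had 1.23, 1.69 and 0.831 CPM with THZ1, against 0.689, 1.38 and 1.52 CPM with DMSO, with overlapping groups (adjusted p = 0.919), and its change was -0.24 without replicate 2 of the treated libraries. Scaled to mitochondrial mRNAs, NR4A2 was lower, with changes of -1.13 ± 0.37 in WERI and -1.64 ± 0.39 in Y79 (-1.92 without that replicate). NR4A3 had 14, 0 and 12 counts in WERI with THZ1, against 11, 10 and 8 with DMSO, and 35, 12 and 14 counts in Y79 with THZ1, against 42, 27 and 35 with DMSO. Its changes of 0.41 ± 0.78 in WERI and -0.04 ± 0.70 in Y79 did not pass (adjusted p = 0.674 and 0.981), and on the mitochondrial scale they were -1.50 ± 0.75 (adjusted p = 0.0714) and -1.74 ± 0.68 (adjusted p = 0.0255). The change of NR4A3 in Y79 was 0.11 without replicate 2 of the treated libraries, and -1.56 on the mitochondrial scale, where it did not pass.

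**Figure D2:**
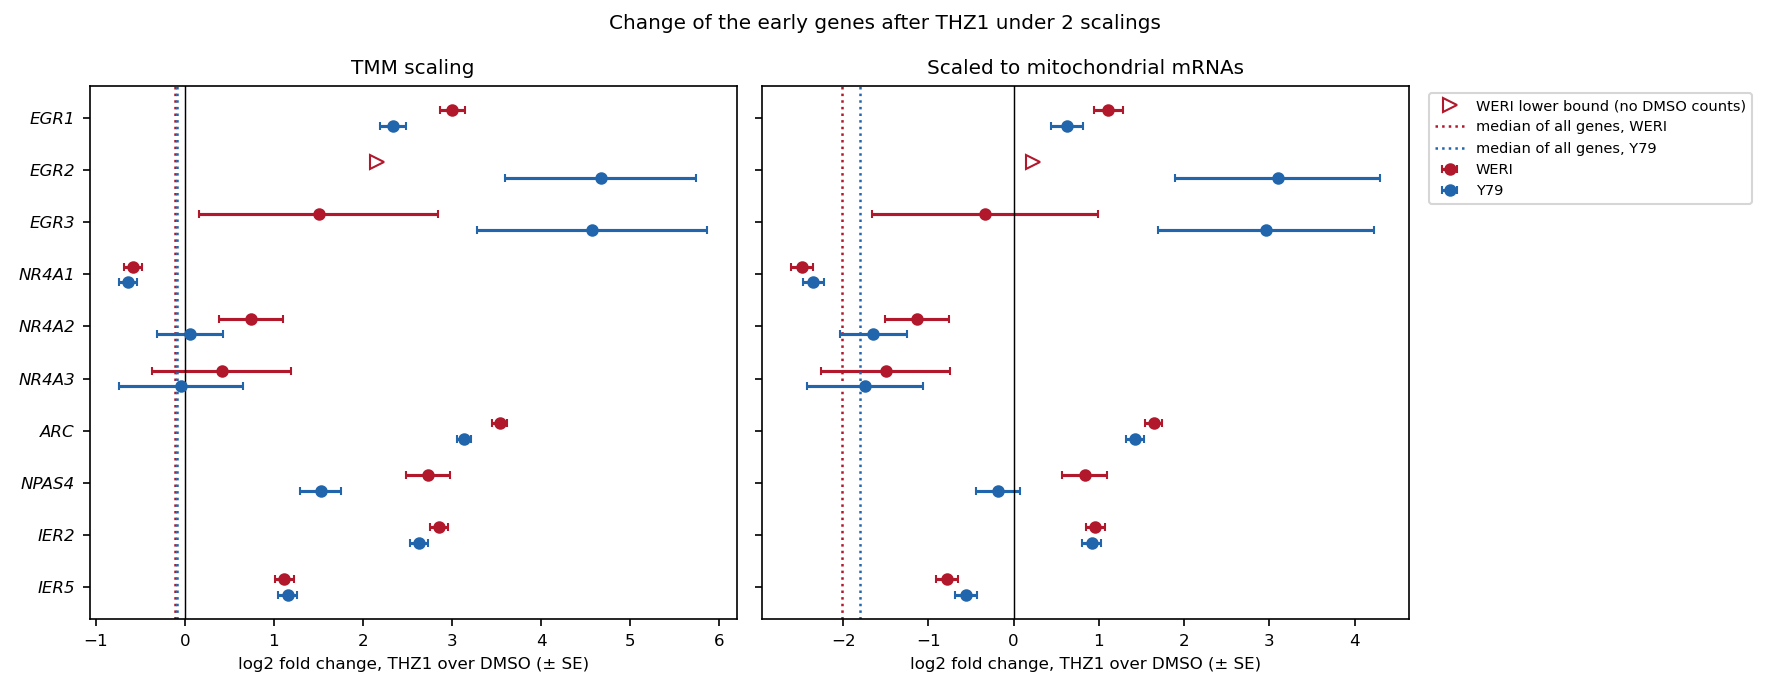
Log2 fold change (± SE) of each early gene with THZ1 over DMSO in WERI (red) and Y79 (blue), with TMM scaling at left and scaled to mitochondrial mRNAs at right; dotted lines mark the median of all tested genes, and the open triangle is a lower bound. ARC lies at 3.54 in WERI and 3.14 in Y79 with TMM scaling, and at 1.64 and 1.43 on the mitochondrial scale, where IER5 crosses to -0.78 and -0.56.

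**Figure D3:**
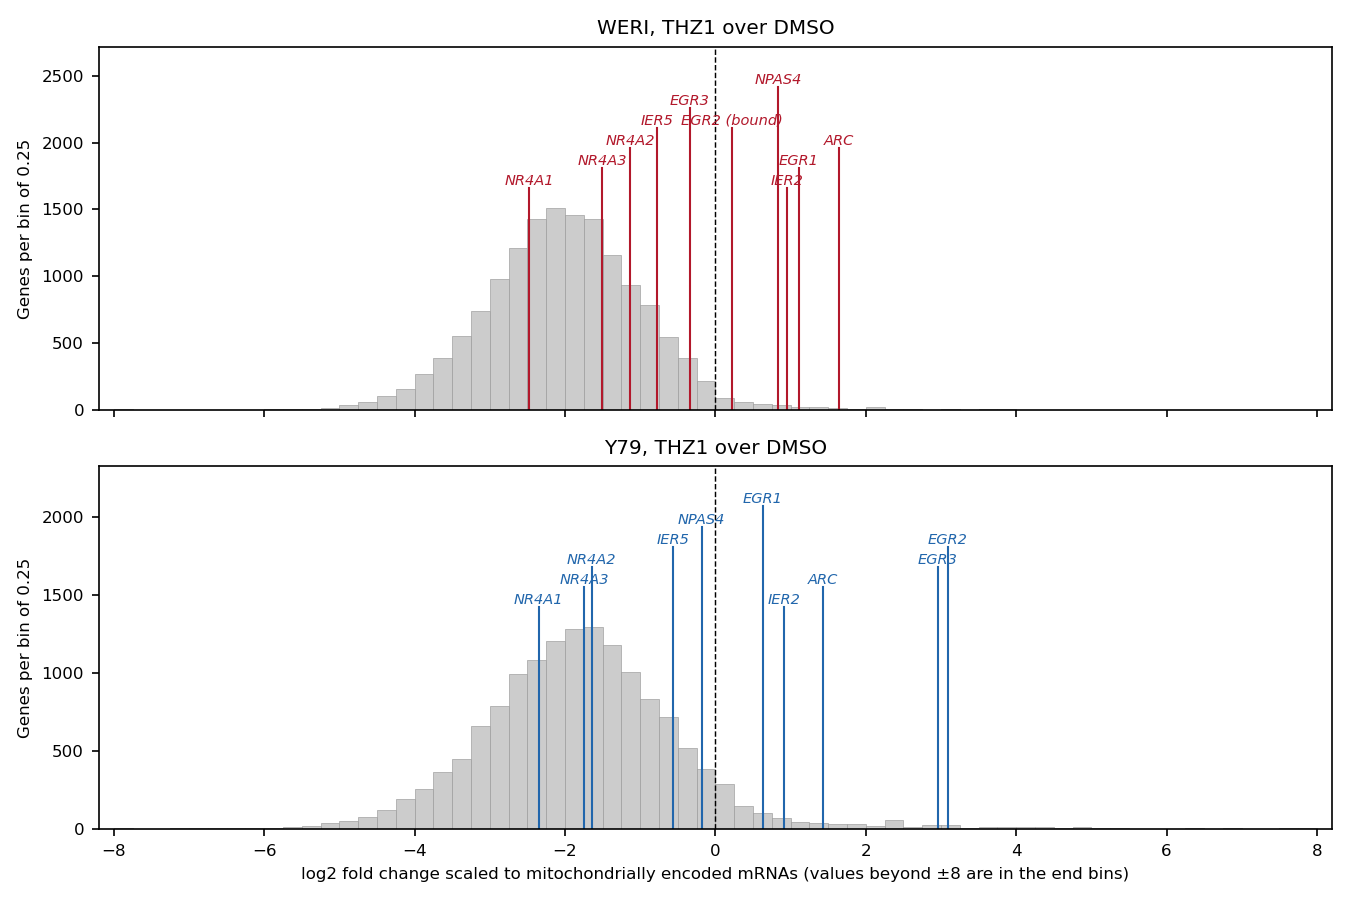
Number of genes per bin of 0.25 in log2 fold change on the mitochondrial scale, THZ1 over DMSO, in WERI (14820 genes, above) and Y79 (14631 genes, below), leaving out tested genes with no counts in the line; vertical lines mark the 10 early genes, with EGR2 in WERI at its lower bound. Most genes lie below 0 (medians of -2.01 and -1.80 over all tested genes), ARC, IER2 and EGR1 lie above 0 in both lines, and NR4A1 lies below the median gene.

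A comparison of the THZ1 changes in Y79 with those in WERI asked whether the lines differ in their response. EGR1, ARC and NPAS4 rose less in Y79 than in WERI. No member rose more by edgeR's test, none with an unadjusted p under 0.05 and none by DESeq2. Of all tested genes, 13.2% had a lower and 8.73% a higher change in Y79 by this test. The difference was -0.66 ± 0.20 for EGR1 (adjusted p = 0.0317), -0.40 ± 0.11 for ARC (adjusted p = 0.0182) and -1.21 ± 0.33 for NPAS4 (adjusted p = 0.0205). On the mitochondrial scale, where 4.8% of tested genes had a lower and 12% a higher change in Y79, none of the 10 passed (of which NPAS4 had an unadjusted p under 0.05), with differences of -0.48 ± 0.26, -0.22 ± 0.14 and -1.02 ± 0.37 for these 3 genes (adjusted p = 0.223, 0.341 and 0.0743). None of the 3 passed there without replicate 2 of Y79 with THZ1 either (-0.50, -0.29 and -0.86). The difference of EGR1 ranged from -0.78 to -0.58 when single libraries were left out, and it lost its call in 7 of 12 cases (adjusted p from 0.0654 to 0.0917). These were replicates 2 and 3 of WERI with THZ1, 1 and 3 of WERI with DMSO, 3 of Y79 with THZ1, and 2 and 3 of Y79 with DMSO. That of ARC (-0.47 to -0.32) lost its call without replicate 2 of WERI with THZ1 (adjusted p = 0.0512) or replicate 3 of WERI with DMSO (adjusted p = 0.0615). That of NPAS4 (-1.44 to -0.996) lost its call without replicate 1 of WERI with THZ1 (adjusted p = 0.0515) or replicate 1 of Y79 with DMSO (adjusted p = 0.0516). Without replicate 2 of Y79 with THZ1 the 3 kept their calls, and IER2 joined them with -0.34 ± 0.09 (adjusted p = 0.0109), against -0.23 ± 0.13 with it (adjusted p = 0.27). With a replicate block in edgeR's fit only NPAS4 kept its call (adjusted p = 0.0687 for EGR1 and 0.0509 for ARC). Differences of 0.04 ± 0.15 for IER5 and -0.05 ± 0.14 for NR4A1 did not pass.

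Without the drug the lines differed in level, and Y79 with DMSO was above WERI with DMSO for 5 genes (NR4A3, ARC, NPAS4, IER2 and IER5) and below it for EGR1. Of all tested genes, 32.3% were called higher and 32.6% lower in Y79. EGR1 was lower in Y79 by a log2 difference of -1.73 ± 0.15 (adjusted p = 1.97e-07), with 1.57 ± 0.20 CPM in Y79 and 5.19 ± 0.48 CPM in WERI (SD, n = 3 each, edgeR's quasi-likelihood test). NPAS4 was higher in Y79 by 1.46 ± 0.24 (adjusted p = 0.000132) and IER5 by 1.01 ± 0.10 (adjusted p = 1.41e-06). These 3 calls also held on the mitochondrial scale, with -2.001 ± 0.19, 1.18 ± 0.27 and 0.74 ± 0.13. The differences of 0.29 ± 0.08 for ARC and 0.27 ± 0.10 for IER2 did not pass on the mitochondrial scale, where they were 0.02 ± 0.10 and -0.01 ± 0.11. That of IER2 also lost its call without replicate 2 or 3 of Y79 with DMSO, replicate 1 or 3 of WERI with DMSO, or replicate 2 of WERI with THZ1 (adjusted p from 0.0599 to 0.107). Library size alone left 2 genes higher (NPAS4 and IER5) and 2 lower (EGR1 and NR4A1), where 24.5% of tested genes were called higher and 38.5% lower, and the mitochondrial scale gave the same 4 calls, where 18.2% and 42.5% were. The difference of NR4A3, 1.89 ± 0.74 (adjusted p = 0.0393), lost its call on leaving out any of the 6 DMSO libraries (adjusted p from 0.0553 to 0.115).

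Per kb of exon, IER2 and ARC led in both treated groups, with 129.8 ± 5.67 and 109.5 ± 3.40 CPM per kb in WERI and 133.4 ± 17.7 and 101.7 ± 8.91 in Y79 (SD, n = 3). IER5 followed with 18.2 ± 1.77 in WERI with THZ1 and 37.6 ± 5.76 in Y79 with THZ1. In WERI with THZ1 the next were EGR1 (13.3), NR4A1 (2.26) and NPAS4 (2.03), of which the last pair overlapped, then NR4A2 (0.625), and EGR2, NR4A3 and EGR3 under 0.1 with overlapping ranges. In WERI with DMSO the order was IER2 (17.9 ± 1.12), ARC (9.44 ± 0.58) and IER5 (8.37 ± 0.63), the last pair overlapping, then NR4A1 (3.38), EGR1 (1.65), and NR4A2 (0.373) and NPAS4 (0.305) with overlapping ranges. In Y79 with THZ1, EGR1 (2.53), NPAS4 (2.41) and NR4A1 (2.03) followed IER5, each overlapping the next. In Y79 with DMSO the order was IER2 (21.6), IER5 (16.9), ARC (11.6), NR4A1 (3.16), NPAS4 (0.839) and EGR1 (0.499), with no overlap between neighbours. So per kb of exon NR4A1 stood above EGR1 and NPAS4 in both DMSO groups, and EGR1 stood above NR4A1 in both treated groups. Before division by exon length the order in Y79 with THZ1 was the reverse, with 14.8 CPM for NR4A1 and 7.93 CPM for EGR1. Exon length here is the union of all annotated exons, which lowers the value of genes with many isoforms such as NR4A1.

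Gene span was set beside the changes, with a limit of 6 kb chosen after the values were seen. Of the 6 members up to 6 kb, 5 were called higher in WERI, all but EGR3, and 6 in Y79. Against mitochondrial mRNAs 4 were higher in WERI (EGR1, ARC, NPAS4 and IER2) and 4 in Y79 (EGR1, EGR3, ARC and IER2), and IER5 was lower in both lines. The 1730 tested genes up to 6 kb had a median log2 change of 0.38 in WERI and 0.40 in Y79, and 41.1% and 43.5% of them were called higher in these lines. The median in Y79 was 0.23 without replicate 2 of its THZ1 libraries, with 38.9% called higher. The 2980 genes over 100 kb had medians of -0.19 in WERI and -0.09 in Y79. Scaled to mitochondrial mRNAs, the genes up to 6 kb had medians of -1.50 in WERI and -1.25 in Y79, and 3.58% and 7.80% of them were called higher (6.62% in Y79 without that replicate). The rises of ARC, EGR1, IER2 and NPAS4 in WERI, from 2.73 to 3.54, were above the median of genes of such span. EGR2 spans 107.9 kb as annotated, and which of its transcripts were expressed was not tested.

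The other genes of the pathway were counted in lists, to be read against all tested genes, of which 27.7% rose and 37.2% fell in WERI and 29.9% rose and 38.5% fell in Y79. The shares on the mitochondrial scale were 0.747% higher and 89.7% lower in WERI, and 1.9% higher and 82% lower in Y79. Partners and relatives of the members numbered 13. They were EGR4, NAB corepressors of EGR proteins, RXR partners of NR4A receptors, ARNT partners of NPAS4, IER3, IER5L and CSRNP genes. Of the 13, 2 rose and 8 fell in WERI (median -0.47), and 3 rose and 8 fell in Y79 (median -0.76). IER5L, a relative of IER5, rose to 163 ± 11.2 CPM in WERI with THZ1, against 15.1 ± 1.66 CPM with DMSO, and to 81.8 ± 17.4 CPM in Y79 with THZ1, against 12.0 ± 1.23 CPM with DMSO. These are changes of 3.44 and 2.77, and of 1.55 and 1.06 on the mitochondrial scale. Replicate 2 of Y79 with THZ1 was the highest of its group for IER5L, at 100.4 CPM, and without it the changes in Y79 were 2.57 and 0.89. CSRNP1, a nuclear protein induced by AXIN1, fell by 1.95 on the log2 scale in both lines (by 2.16 in Y79 without that replicate). Upstream factors (SRF and ELK factors, CREB and its coactivators, MEF2 factors, RSK, MSK and ERK kinases) numbered 22, of which 4 rose and 14 fell in WERI (median -0.71), and 5 rose and 15 fell in Y79 (median -0.63). CREB1 fell by 1.747 in WERI and by 1.29 in Y79, and the coactivator EP300 by 1.65 in WERI and by 1.82 in Y79. MAPK3, which encodes ERK1, was higher by 1.44 in WERI and by 1.06 in Y79, but lower on the mitochondrial scale (-0.46 and -0.65). The SRF partner ELK4 was higher by 0.87 in WERI and by 1.63 in Y79. On the mitochondrial scale ELK4 was lower in WERI (-1.02) and did not pass in Y79 (-0.08). On that scale none of the 22 was called higher, and 22 were called lower in WERI and 20 in Y79, where 89.7% and 82% of all tested genes were lower. Of the 13 partners and relatives, 1 was higher and 10 lower in WERI on the mitochondrial scale, and 2 were higher and 10 lower in Y79. Within each scale, the counts of these 2 lists in Y79 did not change when replicate 2 of its THZ1 libraries was left out.

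Of 21 tested immediate early genes outside the 10, 14 rose and 1 fell in WERI (median 1.00), and 12 rose and 4 fell in Y79 (median 1.08). Scaled to mitochondrial mRNAs, 5 were higher and 13 lower in WERI (median -0.90), and 7 were higher and 11 lower in Y79 (median -0.63). The AP-1 subunit FOSB had 50.7 ± 7.20 CPM in WERI with THZ1 and 1.62 ± 0.54 CPM with DMSO, a change of 4.96, and FOS had 27.4 ± 0.83 CPM in Y79 with THZ1 and 1.55 ± 0.56 CPM with DMSO, a change of 4.13. Both also rose on the mitochondrial scale, by 3.06 and 2.44. In the other line FOSB rose by 2.46 (Y79) and FOS by 4.29 (WERI), and by 0.75 and 2.39 on the mitochondrial scale. FOSL2 fell by 1.08 in WERI and by 0.88 in Y79. TRIB1, a pseudokinase, fell by 1.15 in Y79, while its change in WERI (-0.08) did not pass. Of 19 tested activity-regulated neuronal genes, 6 rose and 6 fell in WERI (median -0.15), and 6 rose and 4 fell in Y79 (median -0.07). Against mitochondrial mRNAs 2 were higher and 16 lower in WERI, and 1 was higher and 14 lower in Y79, where 89.7% of all tested genes were lower in WERI and 82% in Y79. Without replicate 2 of Y79 with THZ1, 11 of the immediate early genes rose and 5 fell in Y79 (6 higher and 11 lower on the mitochondrial scale), and 5 of the neuronal genes rose and 4 fell (1 higher and 13 lower). GADD45B, a stress gene, rose by 3.39 in WERI and by 2.72 in Y79, and by 1.49 and 1.01 on the mitochondrial scale. The clock regulator BHLHE40 fell by 1.35 in WERI and by 0.84 in Y79. The synaptic pentraxin NPTX2 fell by 1.12 in Y79 and by 0.53 in WERI. The largest fitted rise of these neuronal genes in Y79, of the vesicle protein SYT4 (adjusted p = 0.0277), rests on 1 library. It had 0, 0 and 0.374 CPM with THZ1 and 0 CPM in all 3 libraries with DMSO. The change of SYT4 did not pass on the mitochondrial scale in Y79 (adjusted p = 0.13).

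**Figure D4:**
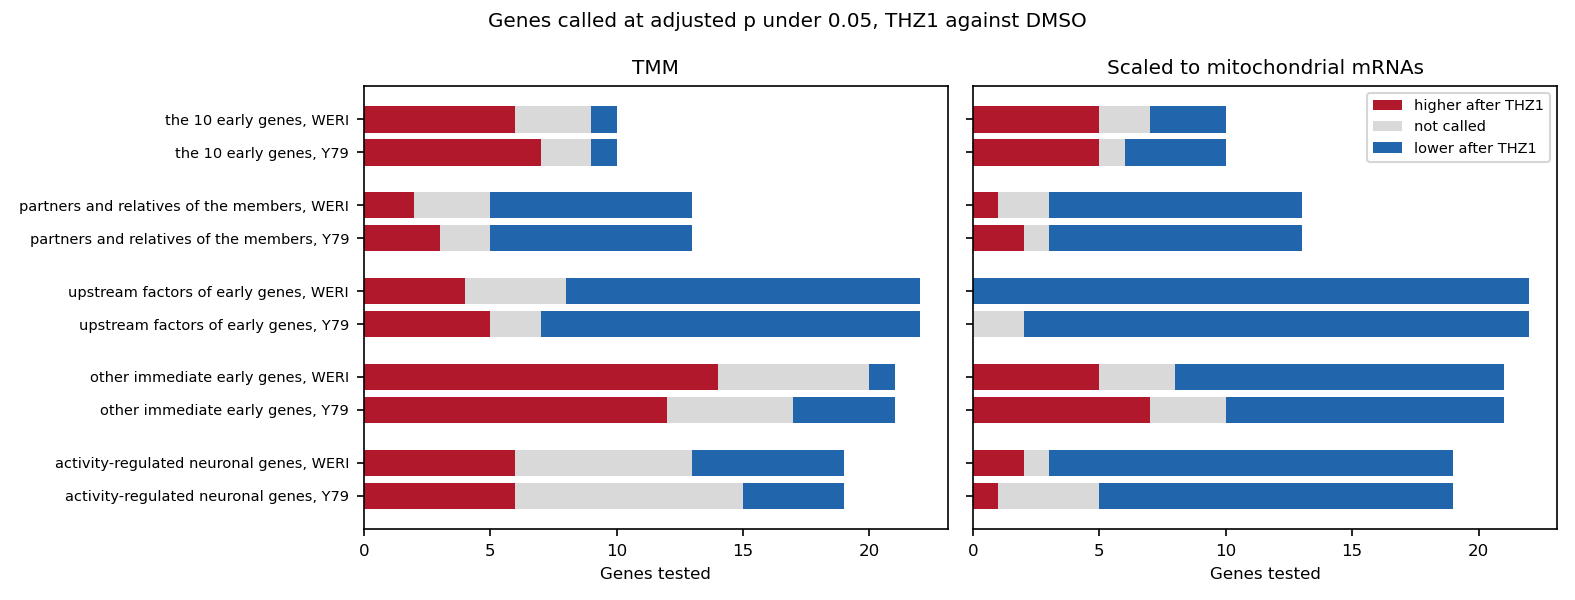
Number of tested genes called higher (red), not called (grey) and lower (blue) with THZ1 against DMSO at an adjusted p under 0.05, for the 10 early genes and 4 lists in WERI and Y79, with TMM scaling at left and the mitochondrial scale at right. On the mitochondrial scale 5 of the 10 early genes are higher in each line (3 in Y79 without replicate 2 of its THZ1 libraries), where 0.747% of all tested genes are higher in WERI and 1.9% in Y79, and most genes of the other lists are lower, as 89.7% and 82% of all tested genes are.

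Genes with a like pattern over the 12 libraries were sought among 10116 genes outside the 10 by Pearson's r of log2 CPM, as a description, since the libraries share line and treatment. Closest to EGR1 were SCARB2 (0.995), PGP (0.994) and ITFG1 (0.993). Closest to ARC were HYOU1 (0.998), GDAP1 (0.996) and the mitochondrial mRNA MT-CO1 (0.996), while ARC and IER2, both among the 10, had a slightly higher r (0.998). The sizes differ, since HYOU1 rose by 1.24 in WERI and ARC by 3.54. Closest to NR4A1 were SLC39A11 (0.983), PPME1 (0.981) and UBTF (0.980).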

How the data were processed

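RNA from 12 samples of WERI and Y79 cells was sequenced with a NEBNext Ultra kit, per the labels' protocols. The authors deposited whole-number counts per gene with no normalization that the values show. Cufflinks and GRCh38 are named per the submitters' processing notes; the aligner and the way of counting, including whether a read pair adds 1 or 2, were not given in the sources used here, which limits what can be read from counts near 0.

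Counts were filtered by filterByExpr of edgeR 4.0.16 (R 4.3.3, minimum count 10), which left 18844 features (14865 Ensembl genes, all 10 members), scaled by TMM and fitted by glmQLFit with robust spread to all 12 libraries with 1 mean per group and no replicate block. Contrasts were THZ1 against DMSO in each line, the difference of these (Y79 minus WERI), and the 2 lines in DMSO (Y79 over WERI). Tests were two-sided, with Benjamini-Hochberg adjustment over all tested features and a threshold of 0.05. Standard errors are the log2 fold change over the square root of F. The same model was run with DESeq2 size factors, library size only, the 13 mitochondrial mRNAs as scale, no filter, no robust spread, only the groups compared, a replicate block, and each library left out; DESeq2 1.42.0 was run as another test. After the data were seen, results in Y79 were also computed without replicate 2 of its THZ1 libraries on the mitochondrial scale, and counts near 0 were read as 2 counts per fragment. Same-numbered libraries did not deviate together (correlations from -0.0438 to 0.00459 within a line). With 3 libraries per group this cannot exclude a pairing, so the fit with a replicate block is also given. No library repeated another: counts of replicates differed beyond sampling noise.

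The members were always named; from each list, the called gene with the largest rise and fall in each line with a mean log2 CPM of at least 1 was named, and for EGR1, ARC and NR4A1 the 3 genes of highest correlation with a mean log2 CPM of at least 3. The members and lists were chosen with earlier results of these data known. Promoter motifs, shares and figures were computed with pandas 2.3.3 and numpy 2.4.6 in Python 3.11.15, exact intervals with scipy 1.17.1, and plots with matplotlib 3.10.9.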

Additional observations from a re-analysis of the deposited data

Results flagged for a closer look

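EGR1, ARC and NPAS4 are listed because the test of the difference between the lines passed, with a smaller THZ1 change in Y79 than in WERI. The difference (Y79 minus WERI, log2) was -0.66 for EGR1, with THZ1 changes of 2.34 in Y79 and 3.00 in WERI. It was -0.40 for ARC, with changes of 3.14 in Y79 and 3.54 in WERI, and -1.21 for NPAS4, with changes of 1.52 in Y79 and 2.73 in WERI. On the mitochondrial scale the 3 differences kept their sign and did not pass (-0.48, -0.22 and -1.02).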

How the results depend on the processing

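Scaling had the widest effect. On the mitochondrial scale the lower calls came to 3 in WERI and 4 in Y79 (1 each with TMM), the lower calls in the difference between the lines to 0 (3 with TMM), and the calls between the lines in DMSO to 2 higher and 2 lower (5 and 1 with TMM); library size alone also gave 2 higher and 2 lower there. On the mitochondrial scale these changes turned: EGR3 (-0.34), NR4A2 (-1.13), NR4A3 (-1.50) and IER5 (-0.78) in WERI, NR4A2 (-1.64), NPAS4 (-0.18) and IER5 (-0.56) in Y79, NR4A1 in the difference (0.13) and IER2 between the lines (-0.011). With library size only, NR4A3 in WERI (-0.038), NR4A2 in Y79 (-0.52) and IER5 in the difference (-0.0903) turned, and NR4A3 in Y79 turned with DESeq2 size factors (0.058) and DESeq2's test (0.052). The replicate block left 1 lower call in the difference (3 without it), that of NPAS4. With the block, edgeR's adjusted p was 0.0687 for EGR1 and 0.0509 for ARC. Whether libraries of the same number were paired is not known.

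Leaving out single libraries gave 1 to 4 lower calls in the difference, with 1 without replicate 3 of WERI with DMSO or replicate 2 of WERI with THZ1, and 3 to 5 higher calls between the lines, with 3 without replicate 1 or 3 of WERI with DMSO or replicate 2 or 3 of Y79 with DMSO. Direction turned for NR4A3 in WERI (-0.12 to 0.97), NR4A2 in Y79 (-0.24 to 0.27), NR4A3 in Y79 (-0.55 to 0.14), in the difference for EGR2 (-2.26 to 0.68), EGR3 (-0.69 to 6.35), NR4A1 (-0.13 to 0.0093), NR4A3 (-1.03 to 0.075) and IER5 (-0.10 to 0.13), and between the lines for EGR3 (-3.76 to 3.28). None of these was called with all libraries. Fitted values of EGR2 and EGR3 rest on groups at or near 0 counts. Of the single-gene values with a library left out, 439 kept direction and call, 22 lost a call, 2 gained one and 16 turned. Of those with other settings, 275 kept both, 11 lost a call, 5 gained one and 14 turned. The cause was not tested. With 2 counts per fragment, chosen after the data were seen, the lower bound of EGR2 in WERI on the mitochondrial scale turned below 1 (0.584; 1.17 with 1 count per fragment). Depth limits EGR2, EGR3 and NR4A3, which had under 50 counts in every library.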
